A study of Mus musculus with 7 samples.

Results

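The comparison described here set adult luminal cells of the mouse mammary gland against adult basal cells, over every gene that the arrays measured. Its members were the 4 adult arrays among the 7 arrays of the series, chosen by their labels: 2 of luminal cells and 2 of basal cells. The luminal cells were YFP-positive cells of K8CREERT2/RosaYFP mice and the basal cells YFP-positive cells of K5CREERT2/RosaYFP mice, both 8 weeks after tamoxifen. In these mice a tamoxifen-dependent Cre recombinase, driven by keratin 8 or keratin 5, switches on a YFP reporter from the Rosa locus, so each group holds the descendants of the cells in which that keratin driver was active. Both groups share the reporter and the tamoxifen. The labels mark the adult samples as a reanalysis, still carry the tissue text and protocol of the embryonic samples, and give no age for the adult mice. They do not tie the replicates of a group to different mice, and p-values therefore reflect only the scatter of 4 arrays, which may be technical. The other 3 arrays, of embryonic mammary cells, were not compared. Median log2 intensity per adult array ran from 5.05 to 5.08, and 47.4% to 49.3% of genes lay above background on an array. With 2 arrays a group, precision is limited by their number.

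The mammary epithelium is a bilayer. Luminal cells line the duct, carry tight junctions and an apical surface, respond to hormones and become the milk-secreting cells. Basal cells lie beneath them, contract, rest on the basement membrane and deposit much of it, and exchange paracrine signals with the luminal layer and with the surrounding stroma.

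Of 17096 genes tested, 1165 changed (6.81%), where changed means a Benjamini-Hochberg adjusted p under 0.05 from limma and a difference of at least 2-fold. Of these, 611 (3.57% of genes) were higher in luminal cells and 554 (3.24%) in basal cells. Leaving out luminal replicate 1 reduced these counts to 519 in all, 232 luminal-high and 287 basal-high, and leaving out basal replicate 2 raised the luminal count to 929. All levels below are log2 of the deposited intensity on each array, differences are luminal minus basal with the standard error of the fit (n = 2 arrays a group), and a background level of 5.77 was taken from genes restricted to other organs. The 2 sides were unequal in size: the median difference was 1.24 among the luminal genes and -1.52 among the basal genes. At least 4-fold differences were seen for 30 luminal and 131 basal genes, and at least 8-fold differences for 0 luminal and 31 basal genes. In 40.4% of the luminal genes the basal mean lay below the background level, and in 39.5% of the basal genes the luminal mean did. For those genes a fold is given below as a lower bound, the mean of the higher group over the background level. In 80 of the 1165 changed genes both means lay below background. They have no such bound but stay in the counts of families and lists. Among changed members, 5 of 6 claudins, 4 of 5 EGF family genes and 7 of 9 innate defence genes lay above background in a group. The count was 4 of 6 for synaptotagmin, SNARE and exocyst genes. The arrays of the groups did not overlap for any of the 1165 genes, but non-overlap alone was common: luminal arrays were both higher for 33.9% of all genes tested and basal arrays both higher for 25.3%.

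**Figure D1:**
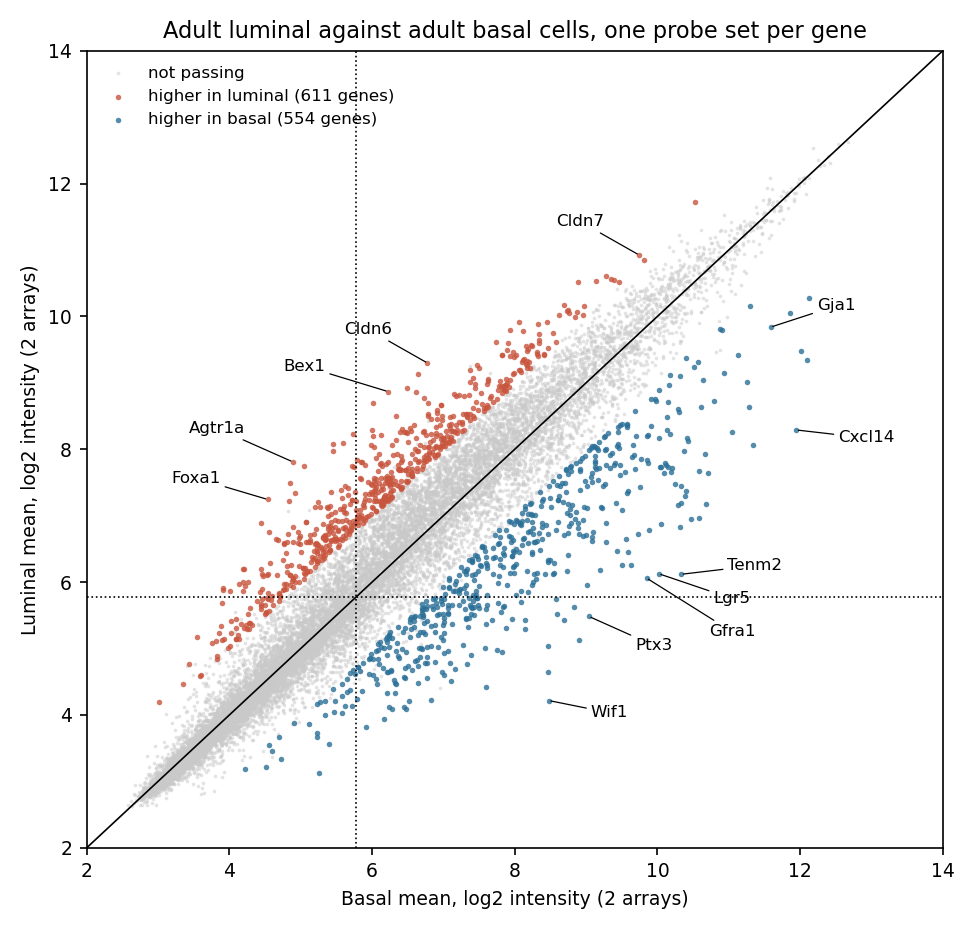
Luminal mean against basal mean (log2 intensity, 2 arrays each) for 17096 genes, 1 point per gene, with the 611 genes higher in luminal cells in red, the 554 higher in basal cells in blue, the line of equality solid and the background level dotted. Blue points reach farther from the line than red points, and no red point lies 8-fold from it.

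The labels were checked first. The basal markers Krt5, Krt14, Trp63 and Lgr5 were all higher in the basal arrays, by log2 differences from -3.9 to -2.54. All 4 were still above background on the luminal arrays: Krt5 at 9.13 and 9.56, Krt14 at 9.54 and 9.42, Trp63 at 7.67 and 7.3, Lgr5 at 6.14 and 6.11. The luminal markers Foxa1, Elf5 and Cldn3 were all higher in the luminal arrays, by 1.39 to 2.71. On the basal arrays Foxa1 and Elf5 lay below background, whereas Cldn3 was at 8.16 and 8.53. Krt5 drives the basal reporter and so is no independent check. The driver gene of the luminal reporter, Krt8, was at 11.05 and 11.03 on the luminal arrays and 10.69 and 10.59 on the basal arrays, a difference that did not pass (adjusted p = 0.075). Cells other than epithelium were looked for with marker lists. Of 8 pericyte markers, 1 was basal-high (Mcam) and 0 luminal-high, with 6 at an unadjusted p under 0.05 by limma. Of 11 Schwann and neural crest markers, 2 were basal-high (Pmp22 and Ngfr) and 1 luminal-high (Erbb3). By limma 0 of 11 adipocyte markers passed, with 5 at an unadjusted p under 0.05, and 0 of 12 skeletal muscle markers, with 0. Leukocyte markers did not pass in any case (0 of 19 by limma, with 3 at an unadjusted p under 0.05), and the pan-leukocyte gene Ptprc was below background on every array. Of the 19, 5 lay above background in a group (Cd74, Cd68, Lyz2, Fcer1g and Cd79a), each with a higher basal mean, and the list's summed intensity was 670 and 916 on the luminal arrays and 968 and 1118 on the basal arrays. Fibroblast markers (2 of 18 higher in basal, 0 in luminal) had a summed intensity of 2875 and 4670 on the luminal arrays and 5966 and 7418 on the basal arrays. By limma 10 of these 18 were at an unadjusted p under 0.05. The calls were Cxcl12 and Mfap5, and both group means of Mfap5 lay below background. Endothelial markers (1 of 19 higher in basal, 0 in luminal) had 659 and 1084 against 1459 and 2300. The call was Esam, with both group means below background. Of these 19, 18 had a lower luminal mean and 1 a higher one, and the median difference was -0.91. Both basal arrays were higher for 16 of the 19, against 25.3% of all genes. By limma 15 of the 19 were at an unadjusted p under 0.05, against 5403 of 17096 genes tested. The leukocyte, fibroblast and endothelial sums were lowest on luminal replicate 1 and highest on basal replicate 2. Erythroid markers had another order, with 4581 and 3707 on the luminal arrays and 2605 and 3793 on the basal arrays. By limma 0 of 6 erythroid markers passed, with 1 at an unadjusted p under 0.05. The haemoglobin gene Hba-a1 was at 12.09 and 11.77 on the luminal arrays and 11.25 and 11.81 on the basal arrays. In sorted bulk samples, fewer cells of a type and less RNA per cell cannot be told apart.

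Genes with large luminal-high differences included a receptor and a transcription factor. Agtr1a, the type 1 receptor for angiotensin II, was at 7.74 and 7.89 on the luminal arrays and 4.85 and 4.93 on the basal arrays. The basal arrays lay below background, so the fold was at least 4.12 (difference 2.92 ± 0.13, adjusted p = 0.00169). Foxa1, a pioneer factor that opens chromatin for the oestrogen receptor, was at 7.28 and 7.21 on the luminal arrays and 4.31 and 4.76 on the basal arrays (at least 2.78-fold, adjusted p = 0.00247). Neither gene's groups came near each other. Bex1 (2.64 ± 0.2), a small adaptor protein of neurotrophin signalling, Cdo1 (2.42 ± 0.15), which oxidises cysteine towards taurine, and Padi2 (2.68 ± 0.23, 6.42-fold), which turns arginine into citrulline in histones and other proteins, were above background in both groups, and their folds are not bounds. Syt7, a calcium sensor for exocytosis, was at 7.25 and 7.42 on the luminal arrays and 4.74 and 5.1 on the basal arrays, and Mlph, which ties Rab27 vesicles to myosin, at 8.02 and 8.16 on the luminal arrays and 5.4 and 5.79 on the basal arrays. In both cases only the luminal arrays, plus a single basal array of Mlph, exceeded background.

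Junction and polarity genes were the densest group on the luminal side. Of 42 measured members of the cell polarity and apical membrane list, 15 were higher in luminal cells (35.7%) and 1 in basal cells, and the median difference of the list was 0.57 against 0.02 over all genes. Crb3, the apical Crumbs protein that marks the luminal-facing membrane, was at 8.82 and 8.8 on the luminal arrays and 7.69 and 7.64 on the basal arrays. Pard6b, its partner in the Par polarity complex, was at 7.64 and 7.49 on the luminal arrays and 6.09 and 6.16 on the basal arrays (difference 1.44 ± 0.13), while its paralog Pard6g was at 7.2 and 7.05 on the luminal arrays and 8.3 and 8.71 on the basal arrays and was the single basal member. Occludin and its relatives, membrane proteins of tight junctions, moved together: Ocln by 1.78 ± 0.19, Marveld2 by 1.7 ± 0.19 and Marveld3 by 1.93 ± 0.13. Cingulin (Cgn, 1.83 ± 0.17) links those junctions to actomyosin, Mal2 (1.75 ± 0.15) carries cargo across the cell to the apical side, and prominin 1 (Prom1, 1.86 ± 0.18) sits on apical protrusions. Without luminal replicate 1, 9 members of the list passed in place of 16.

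Claudins, the pore-forming and sealing strands of tight junctions, followed with 6 of 26 higher in luminal cells and 0 in basal cells. Cldn6 was at 9.25 and 9.35 on the luminal arrays and 6.73 and 6.83 on the basal arrays (5.74-fold), Cldn1 at 8.66 and 8.41 on the luminal arrays and 6.85 and 6.73 on the basal arrays and Cldn10 at 7.65 and 7.81 on the luminal arrays and 5.53 and 5.98 on the basal arrays. Cldn7, a claudin found across epithelia, was at 10.99 and 10.86 on the luminal arrays and 9.65 and 9.84 on the basal arrays. Most claudins were dim: 11 of the 26 lay above background in a group, so the count covers less than the family. The count was 3 without luminal replicate 1. Nectin4, an adhesion receptor of adherens junctions, was at 8.86 and 8.68 on the luminal arrays and 6.38 and 7.08 on the basal arrays. P-cadherin, the classical cadherin of basal epithelia, went the other way, with Cdh3 at 6.6 and 6.84 on the luminal arrays and 9.67 and 9.78 on the basal arrays.

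Because junction and polarity genes were luminal-high together, the bases before the start site are shown for 4 luminal-high genes: Crb3, Pard6b and Rab25 of the polarity list, and Elf5, an ETS factor and luminal marker. They were picked after their letters were counted, as examples that hold more than 1 match to the E-box below. Sequences are from RefSeq (build GRCm38.p6), run 5′ to 3′ on the gene's strand and end at the base before the annotated start. Capitals mark the E-box CACCTG or its reverse complement CAGGTG, the letters that Snail and Zeb repressors are known to bind.
Crb3 (chr17:57061951-57062200, strand +): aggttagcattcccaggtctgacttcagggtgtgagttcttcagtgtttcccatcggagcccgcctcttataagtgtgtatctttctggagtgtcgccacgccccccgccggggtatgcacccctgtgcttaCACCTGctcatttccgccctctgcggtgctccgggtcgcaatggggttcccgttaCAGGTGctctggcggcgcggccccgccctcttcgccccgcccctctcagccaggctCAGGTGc
Rab25 (chr3:88548280-88548529, strand -): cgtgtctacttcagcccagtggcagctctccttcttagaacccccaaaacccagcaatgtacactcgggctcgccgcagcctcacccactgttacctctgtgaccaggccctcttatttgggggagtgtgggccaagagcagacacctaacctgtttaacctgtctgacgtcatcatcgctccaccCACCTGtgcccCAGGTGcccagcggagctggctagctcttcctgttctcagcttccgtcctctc
Pard6b (chr2:168080754-168081003, strand +): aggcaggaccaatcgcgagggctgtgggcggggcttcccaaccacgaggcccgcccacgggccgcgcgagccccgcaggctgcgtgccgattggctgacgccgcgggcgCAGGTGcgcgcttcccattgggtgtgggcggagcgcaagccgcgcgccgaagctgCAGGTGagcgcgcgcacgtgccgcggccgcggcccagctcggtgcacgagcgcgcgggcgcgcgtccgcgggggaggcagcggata
Elf5 (chr2:103411848-103412097, strand +): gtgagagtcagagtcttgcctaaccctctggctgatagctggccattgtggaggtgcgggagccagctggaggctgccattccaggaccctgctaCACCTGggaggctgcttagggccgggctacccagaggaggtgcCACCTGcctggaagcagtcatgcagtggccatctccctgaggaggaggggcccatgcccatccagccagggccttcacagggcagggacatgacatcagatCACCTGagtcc
Crb3 and Elf5 each held 3 such letters in these 250 bases, and Rab25 and Pard6b each held 2. In Rab25, a Rab GTPase of apical recycling at 9.45 and 9.4 on the luminal arrays and 7.53 and 8.12 on the basal arrays, the pair was separated by a few bases.

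Promoter windows of 300 bases, from 250 before to 50 after the first listed start, were available for 13513 of the genes, among them 491 luminal-high and 408 basal-high genes. CACCTG on either strand stood in 19.62% of all windows, 29.33% of the luminal-high windows and 16.18% of the basal-high windows. Among windows with 5 or more CpG the shares were 18.74%, 30.82% and 16.39%, and among CpG-poor windows 23.41%, 19.7% and 14.58%, so the higher luminal share was not seen in the CpG-poor class, which held 66 luminal-high windows. Counted for every family and list, the letters stood in 2 of 5 windows of changed claudins and 3 of 7 of changed mitochondrial ribosomal proteins. Shares ranged widely over the other groups. Among changed members they stood in 3 of 4 Rab GTPases, 3 of 5 TGF-beta genes and 4 of 7 innate defence genes. The counts were 5 of 23 for solute carriers and 2 of 15 for collagens. High shares in few windows were thus not particular to polarity genes. Of the 10 changed polarity genes with a window, in either direction, 8 held the letters. Snai2, a repressor that binds them, was at 4.93 and 5.12 on the luminal arrays and 6.95 and 6.89 on the basal arrays, a basal-high gene (-1.89 ± 0.13, adjusted p = 0.00247), while Zeb1 (-0.32 ± 0.41) and Zeb2 (-1.23 ± 0.39) did not pass. The ETS letters CCGGAAG on either strand, which do not overlap the E-box letters, stood in 13.82% of all windows, 15.07% of the luminal-high and 3.43% of the basal-high ones. Among genes above background their share was 18.95%, and among windows with 5 or more CpG the basal-high share was 3.61% against 16.7% for all genes. The AP-1 letters TGANTCA stood in 6.39% of all, 5.3% of luminal-high and 6.13% of basal-high windows, and the TEAD letters CATTCC in 13.03%, 15.48% and 12.99%. These are counts of letters in a window, with no test, and occupancy by a factor was not measured.

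**Figure D2:**
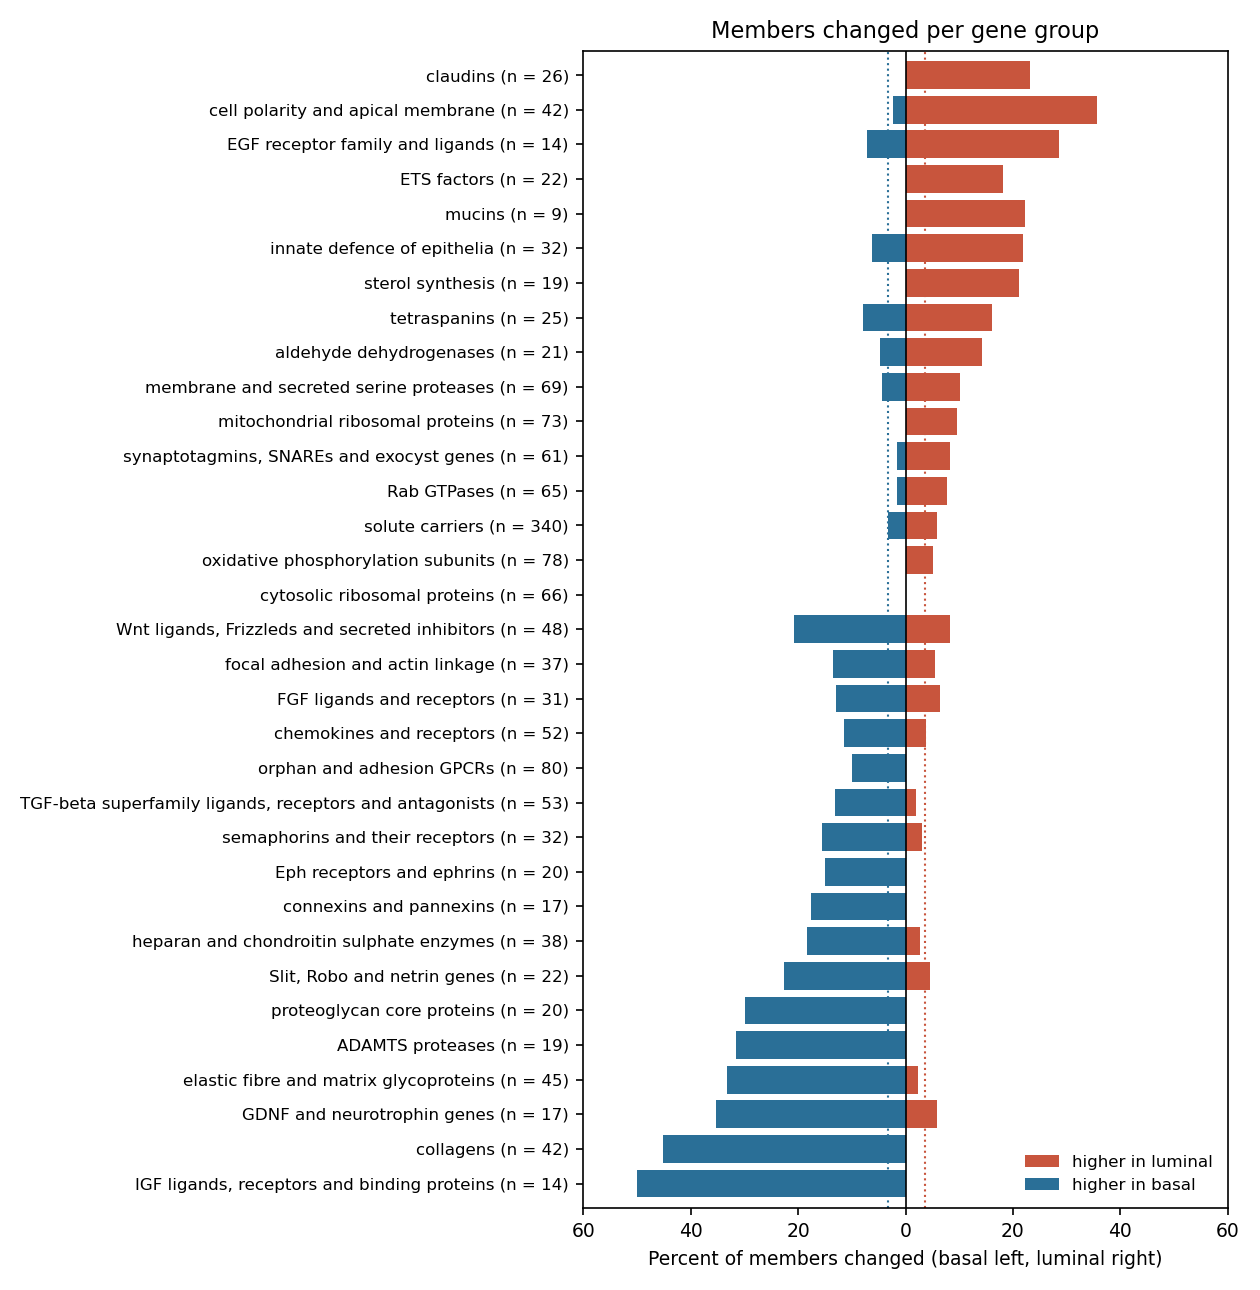
Percent of the measured members of each gene group (n in brackets) that changed, with members higher in luminal cells to the right in red and members higher in basal cells to the left in blue; dotted lines give the shares over all genes tested, 3.57% and 3.24%. The longest red bar is cell polarity and apical membrane (35.7%) and the longest blue bar the IGF genes (50%).

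Growth factor genes split between the layers by family. In the EGF family, 4 of 14 members were higher in luminal cells and 1 in basal cells. Erbb3, a neuregulin receptor, was at 9.86 and 9.72 on the luminal arrays and 7.8 and 8.07 on the basal arrays (3.62-fold). The EGF receptor ligands Btc (2.19 ± 0.19) and Epgn (1.69 ± 0.28) were luminal-high, whereas the ERBB3 ligand Nrg1 was at 5.49 and 5.44 on the luminal arrays and 7.4 and 6.63 on the basal arrays and was the basal member. Receptor and ligand of this pair were thus higher in different layers. The group had 3 changed members without luminal replicate 1. The Wnt group had 10 of 48 members basal-high (20.8%) and 4 luminal-high. The ligands Wnt4 at 9.13 and 9.32 on the luminal arrays and 7.32 and 7.67 on the basal arrays and Wnt7b at 8.72 and 8.28 on the luminal arrays and 6.62 and 6.96 on the basal arrays were luminal-high. Rspo1, which amplifies Wnt signals, had a luminal-high call (1.2 ± 0.12) at levels below background on all 4 arrays. The Wnt total of 14 became 9 without luminal replicate 1. On the basal side stood Lgr5 and Lgr4, the R-spondin receptors, Lrp6, a Wnt coreceptor (-1.19 ± 0.16), and secreted inhibitors.

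The Wnt inhibitor Wif1 was above background in basal cells alone. Its level was 8.19 and 8.76 on the basal arrays and 4.17 and 4.27 on the luminal arrays, a difference of -4.26 ± 0.21 (adjusted p = 0.00169), with the luminal arrays below background and a fold of at least 6.53. Sfrp1, which binds Wnt ligands outside the cell, was at 8.77 and 9.24 on the basal arrays and 5.85 and 6.06 on the luminal arrays, and Dkk3 at 7.91 and 8.61 on the basal arrays and 6.21 and 5.79 on the luminal arrays. The basal Wif1 arrays differed by over 0.5, a small part of the gap to the luminal arrays. Lgr4 was at 8.78 and 8.75 on the basal arrays and 7.26 and 6.44 on the luminal arrays, with luminal replicate 1 the higher of its pair, unlike Wif1 and Sfrp1.

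The IGF group had the highest share of changed members among the groups plotted: 7 of 14 were higher in basal cells and 0 in luminal cells, with a median of -0.9. Igfbp3, which binds and carries IGFs, was at 10.66 and 10.52 on the basal arrays and 6.39 and 7.54 on the luminal arrays. The luminal replicates of Igfbp3 differed by more than 1, yet both lay far below the basal pair (difference -3.62 ± 0.36, adjusted p = 0.00489). Ligands and receptor were on the same side: Igf1 at 7.13 and 7.85 on the basal arrays and 6.27 and 6.43 on the luminal arrays, Igf2 at 9.6 and 9.77 on the basal arrays and 8.36 and 8.8 on the luminal arrays and Igf1r at 8.1 and 8.35 on the basal arrays and 7.06 and 7.0 on the luminal arrays. Igfbp6 (-1.41 ± 0.31) prefers IGF2 as its partner. Igfbp4 was at 10.23 and 11.05 on the basal arrays and 8.62 and 9.45 on the luminal arrays, the widest spread between basal replicates in the group. The IGF count fell to 1 without luminal replicate 1, 3 without luminal replicate 2 and 4 without basal replicate 2.

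Neurotrophic factor genes were basal-high in 6 of 17 cases, with 1 luminal exception. Gfra1, the receptor for GDNF, was at 9.84 and 9.86 on the basal arrays and 6.08 and 6.04 on the luminal arrays, replicates agreeing within 0.05 in each group (difference -3.79 ± 0.12, 13.8-fold). Its signalling partner Ret was at 6.01 and 6.16 on the basal arrays and 4.74 and 4.96 on the luminal arrays, close to background. Gfra2 (-1.66 ± 0.22), the neurturin receptor, and Ntrk3 (-1.86 ± 0.15), the neurotrophin 3 receptor, rose with it in basal cells. Sort1, a sorting receptor for pro-neurotrophins and other cargo, was the luminal member at 10.24 and 10.1 on the luminal arrays and 8.42 and 8.95 on the basal arrays. The total of 7 became 3 without luminal replicate 1.

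TGF-beta and FGF genes also leaned to the basal side (7 of 53 and 4 of 31 basal-high, 1 of 53 and 2 of 31 luminal-high). Follistatin (Fst), which traps activin, was at 10.55 and 10.12 on the basal arrays and 7.17 and 7.21 on the luminal arrays, and the coreceptor Tgfbr3 at 10.22 and 10.44 on the basal arrays and 7.38 and 7.5 on the luminal arrays. The basal arrays were 8.83-fold higher for Fst and 7.38-fold higher for Tgfbr3. Bmp7 was at 7.71 and 7.86 on the basal arrays and 5.99 and 6.19 on the luminal arrays and Fgf2, a heparin-binding FGF stored in matrix, at 6.45 and 6.1 on the basal arrays and 4.01 and 4.16 on the luminal arrays. The luminal Fgf2 arrays lay below background. Vegfa, the main angiogenic factor, was at 10.06 and 9.91 on the basal arrays and 8.77 and 8.7 on the luminal arrays (-1.25 ± 0.13). The FGF count of 6 became 3, 2 and 3 without luminal replicate 1, luminal replicate 2 and basal replicate 2.

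The collagens that changed were all basal-high, 19 of 42 against 0 in luminal cells, with a median of -0.95. Anchoring collagens came first by adjusted p: Col17a1, of the hemidesmosome, was at 10.75 and 10.67 on the basal arrays and 7.49 and 7.78 on the luminal arrays, and Col7a1, of the anchoring fibril, at 9.05 and 9.12 on the basal arrays and 6.7 and 6.67 on the luminal arrays. Col14a1, which decorates collagen fibrils, was at 10.08 and 10.56 on the basal arrays and 6.64 and 7.0 on the luminal arrays (11.3-fold), and Col16a1 at 9.97 and 10.12 on the basal arrays and 7.6 and 7.88 on the luminal arrays. The chains of basement membrane collagen IV moved in their chromosomal pairs: Col4a1 (-1.71 ± 0.28) with Col4a2 (-2.49 ± 0.23), and Col4a5 (-1.55 ± 0.15) with Col4a6 (-1.57 ± 0.17). In each of these chains both basal arrays lay above both luminal arrays, as for every basal-high gene.

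Fibroblast collagens were read beside these. Col1a1, a fibril collagen on the fibroblast list, was at 10.81 and 10.93 on the basal arrays and 8.58 and 10.41 on the luminal arrays and did not pass (adjusted p = 0.157). Col3a1 was at 10.56 and 11.08 on the basal arrays and 8.51 and 10.43 on the luminal arrays (adjusted p = 0.194). Luminal replicate 2 lay near the basal arrays for both and luminal replicate 1 below them. Of the 18 fibroblast markers, 13 lay above background in a group and 16 had a higher basal mean. Pdgfra was below background on every array, whereas Dcn was at 9.79 and 10.21 on the basal arrays and 10.43 and 9.67 on the luminal arrays, with the groups overlapping. Pdgfrb (-0.8 ± 0.19), Thy1 (-1.02 ± 0.33), Dpt (-1.47 ± 0.53) and Serpinf1 (-0.82 ± 0.13) were each higher on both basal arrays and below the 2-fold minimum or the test's threshold. The list had 7 changed members without luminal replicate 2, and 1 without luminal replicate 1 or basal replicate 2. The part of fibroblast RNA in the collagen count was not tested.

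Other matrix groups also had more basal-high than luminal-high members. Of 45 elastic fibre and matrix glycoprotein genes, 15 were basal-high and 1 was luminal-high. The total of 16 became 8 without luminal replicate 1. Elastin (Eln) was at 11.29 and 11.38 on the basal arrays and 7.42 and 8.72 on the luminal arrays (-3.27 ± 0.4), with a gap of more than 1 between the luminal replicates. Ltbp2 (-2.25 ± 0.13), Ltbp4 (-2.31 ± 0.24), Fbln7 (-2.07 ± 0.15) and Matn2 (-2.0 ± 0.17) belong to elastic fibres or matrix filaments. Proteoglycan cores were basal-high in 6 of 20 cases and luminal-high in 0. Fmod, which spaces collagen fibrils, was at 8.53 and 8.62 on the basal arrays and 5.67 and 5.82 on the luminal arrays, Vcan, a large chondroitin sulphate proteoglycan, at 8.66 and 8.84 on the basal arrays and 6.31 and 6.5 on the luminal arrays, and Spock2, a testican, at 9.85 and 10.25 on the basal arrays and 6.54 and 7.21 on the luminal arrays.

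So did enzymes that cut or edit matrix. ADAMTS proteases, which cleave proteoglycans and procollagens, were basal-high in 6 of 19 cases and luminal-high in 0. Adamts1 was at 8.07 and 7.96 on the basal arrays and 5.9 and 5.72 on the luminal arrays and Adamts18 at 6.53 and 7.12 on the basal arrays and 4.11 and 4.36 on the luminal arrays, both with luminal means near or below background. The gelatinase Mmp2 was at 10.38 and 10.55 on the basal arrays and 6.33 and 7.56 on the luminal arrays (-3.52 ± 0.39), and the metalloproteinase inhibitor Timp3 at 9.83 and 9.91 on the basal arrays and 8.3 and 8.12 on the luminal arrays. Among heparan and chondroitin sulphate enzymes, 7 of 38 were basal-high and 1 luminal-high. Without luminal replicate 1 these counts were 3 ADAMTS genes and 5 sulphate enzymes. Sulf1 removes sulphates from heparan chains outside the cell and was at 9.58 and 9.58 on the basal arrays and 6.17 and 6.73 on the luminal arrays.

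**Figure D3:**
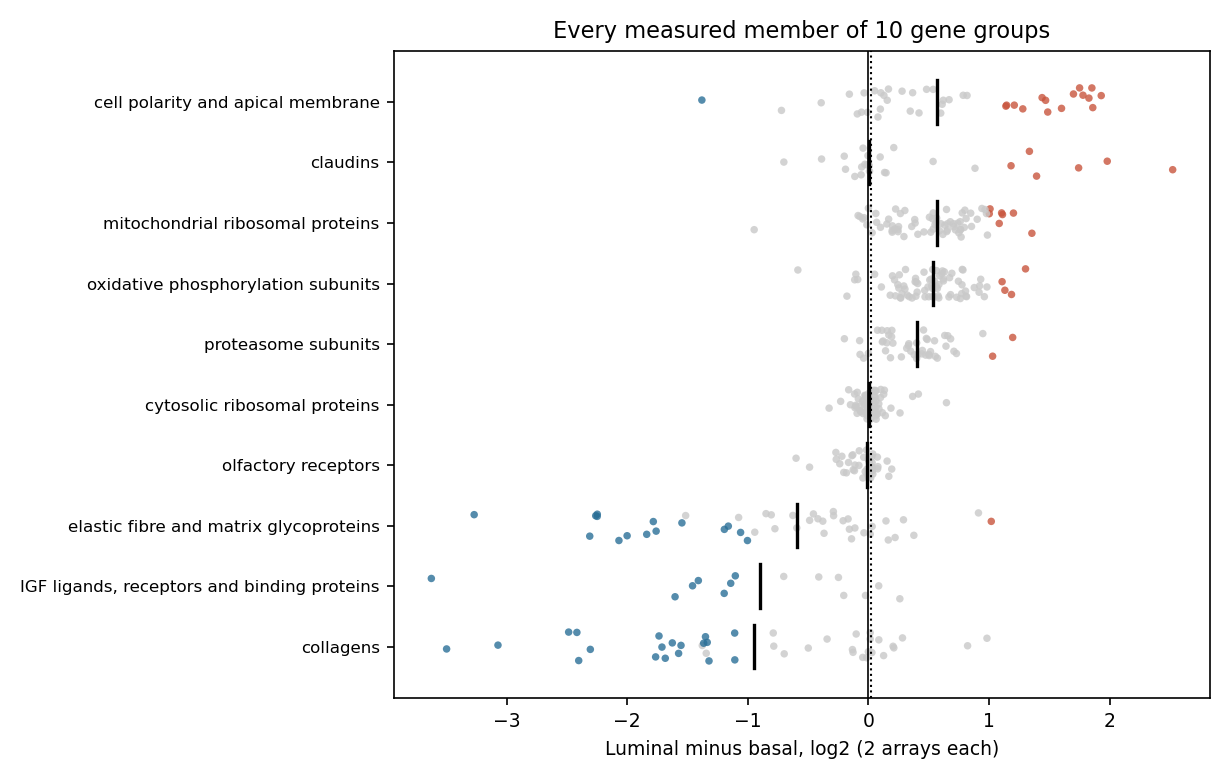
Luminal minus basal difference (log2) of each measured member of 10 gene groups, with members higher in luminal cells in red, members higher in basal cells in blue, members that did not pass in grey, the median of each group as a black bar and the median of all genes dotted. Mitochondrial groups are shifted as a whole to the right by about 0.5, whereas collagens spread from 0.98 to -3.5 and cytosolic ribosomal proteins sit at 0.

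Mitochondrial genes showed another shape of difference, small and shared by nearly all members. Of 73 mitochondrial ribosomal proteins, which translate the genes of the organelle, 66 had a higher luminal mean, and the median difference was 0.57. With the fold minimum left off, 34 of the 73 passed as luminal-high and 1 as basal-high, against 10.7% and 6.14% of all genes. For 59 of the 73 both luminal arrays were above both basal arrays, against 33.9% of all genes. Of the 73, 71 lay above background in a group, against 8912 of the 17096 genes tested. The shares of all genes thus cover many genes below background and are no matched comparison. Among all genes above background, 61.8% had a higher luminal mean. Of 78 oxidative phosphorylation subunits, 73 had a higher luminal mean (median 0.53), 40 passed without the fold minimum as luminal-high and 0 as basal-high. The TCA cycle list had 19 of 19 with a higher luminal mean (median 0.56). With the 2-fold minimum, 6.29% of genes above background were luminal-high. The counts in the mitochondrial groups were 7 of 73 (9.59%), 4 of 78 (5.13%) and 1 of 19 (5.26%), so only the mitochondrial ribosomal proteins exceeded that share. These counts moved with every array left out: without luminal replicate 1, luminal replicate 2, basal replicate 1 and basal replicate 2 the luminal-high count of mitochondrial ribosomal proteins was 1, 2, 4 and 12, of oxidative phosphorylation subunits 0, 0, 0 and 12 and of TCA cycle genes 0, 0, 0 and 5. With the fold minimum off, the luminal-high count of oxidative phosphorylation subunits was 0, 0, 20 and 40 and of mitochondrial ribosomal proteins 1, 2, 27 and 34 in the same order. The medians ran from 0.51 to 0.59 for the mitochondrial ribosomal proteins and from 0.48 to 0.58 for the oxidative phosphorylation subunits.

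The mitochondrial genes named next passed the 2-fold minimum and are large examples, not typical members. The largest difference was 1.3 among oxidative phosphorylation subunits and TCA cycle genes and 1.35 among mitochondrial ribosomal proteins. The medians of these groups were 0.53, 0.56 and 0.57. Sdha, the catalytic subunit of succinate dehydrogenase that serves both the TCA cycle and the respiratory chain, was at 9.49 and 9.47 on the luminal arrays and 7.78 and 8.57 on the basal arrays. Ndufv3, of complex I, was at 10.1 and 10.03 on the luminal arrays and 8.61 and 9.14 on the basal arrays. Mrpl44 was at 7.54 and 7.26 on the luminal arrays and 6.02 and 6.06 on the basal arrays and Lars2, the mitochondrial leucyl-tRNA synthetase, at 7.05 and 7.28 on the luminal arrays and 5.69 and 6.06 on the basal arrays. The basal replicates of Sdha differed by more than the luminal ones, and basal replicate 2 was the nearer to them. Slc25a37 (mitoferrin, the mitochondrial iron carrier) was at 9.61 and 9.67 on the luminal arrays and 8.22 and 8.47 on the basal arrays, although its other probe set above background had the opposite sign without passing. By contrast, 66 cytosolic ribosomal proteins had a median of 0.01, 1 passed limma's adjusted p as luminal-high with the fold minimum off and 0 with it (2 at an unadjusted p under 0.05). Proteasome subunits lay between, with a median of 0.4 and 2 of 47 luminal-high, of which Psmb8, an immunoproteasome subunit, was at 8.04 and 8.28 on the luminal arrays and 6.58 and 7.35 on the basal arrays. Neither proteasome gene passed without luminal replicate 1, luminal replicate 2 or basal replicate 1. The mitochondrial medians kept their sign under each scaling tried, which could hardly have come out otherwise. Quantile normalization and median centring moved the median of all genes only from 0.0235 to 0.0119 and -0.0349. The median of genes above background was itself 0.16.

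Lipid and amino acid pathways were narrower. Sterol synthesis had 4 of 19 luminal-high and 0 basal-high genes. Fdps, which makes farnesyl diphosphate, was at 7.62 and 7.34 on the luminal arrays and 6.13 and 6.34 on the basal arrays, and Dhcr7, which makes cholesterol in the last step, at 7.8 and 7.82 on the luminal arrays and 6.33 and 7.13 on the basal arrays. Ebp (1.16 ± 0.15) and Nsdhl (1.06 ± 0.21) act between them. The sterol count was 0 without luminal replicate 1 and 2 without basal replicate 1. Elongases of long-chain fatty acids split: Elovl7 (1.58 ± 0.22) and Elovl6 (1.21 ± 0.31) were luminal-high, and Elovl4, which makes the longest chains, was at 7.58 and 8.05 on the basal arrays and 4.99 and 4.92 on the luminal arrays. Arginine use split as well. Arg1 (1.52 ± 0.18) and Arg2 (1.61 ± 0.18), which turn arginine into ornithine, were luminal-high, and Odc1, which turns ornithine into putrescine, was at 9.65 and 9.71 on the basal arrays and 7.77 and 7.65 on the luminal arrays. Bcat1, a branched-chain aminotransferase, was at 6.51 and 6.52 on the basal arrays and 3.9 and 4.52 on the luminal arrays, and Slc16a1, a lactate and pyruvate transporter, at 9.03 and 9.54 on the basal arrays and 6.74 and 7.05 on the luminal arrays (5.23-fold).

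Secretion and defence genes changed in both directions. Of 32 genes of innate epithelial defence, 7 were luminal-high and 2 basal-high. The total of 9 fell to 3 without luminal replicate 1. Defb1, a constitutive defensin, was at 6.79 and 6.65 on the luminal arrays and 4.91 and 4.73 on the basal arrays and Wfdc2, a protease inhibitor of secretions, at 9.72 and 9.83 on the luminal arrays and 7.86 and 8.38 on the basal arrays. Lactoferrin (Ltf), an iron-binding milk protein, was at 9.71 and 9.11 on the luminal arrays and 8.11 and 8.54 on the basal arrays. Slpi, another inhibitor of the same whey-acidic-protein class as Wfdc2, was basal-high at 9.25 and 9.3 on the basal arrays and 7.87 and 7.65 on the luminal arrays. Of 69 membrane and secreted serine proteases, 7 were luminal-high and 3 basal-high. Klk10 was at 9.33 and 8.93 on the luminal arrays and 6.52 and 6.77 on the basal arrays (5.61-fold) and matriptase (St14), an epithelial surface protease, at 9.0 and 8.69 on the luminal arrays and 7.87 and 7.77 on the basal arrays. Prss8 (1.6 ± 0.2), Tmprss13 (1.83 ± 0.14) and hepsin (Hpn, 1.18 ± 0.17) are also membrane-tethered. The protease count was 5 without luminal replicate 1. Plat, the tissue plasminogen activator, was among the basal members at 8.74 and 8.88 on the basal arrays and 7.49 and 6.84 on the luminal arrays.

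Vesicle traffic genes had small counts, 5 of 65 Rab GTPases and 5 of 61 synaptotagmin, SNARE and exocyst genes luminal-high, with 1 basal-high in each. Without luminal replicate 1 each group had 1 call, and without luminal replicate 2 the second had 3. Rab27b, a Rab of secretory vesicles, was at 5.9 and 5.82 on the luminal arrays and 4.28 and 3.73 on the basal arrays, below background in basal cells. Its paralog Rab27a went the other way, at 6.86 and 6.65 on the basal arrays and 5.27 and 5.93 on the luminal arrays. Mucins Muc1 (1.14 ± 0.23), on the apical surface of luminal cells, and Muc15 (1.84 ± 0.23) were luminal-high. Solute carriers, at 20 luminal-high and 11 basal-high of 340 (5.88% and 3.24%), were close to the shares over all genes, and numbered 15 in all without luminal replicate 1. Slc35f3, a carrier of uncertain substrate, was at 7.78 and 7.71 on the luminal arrays and 4.73 and 5.37 on the basal arrays, and Slc25a35, a mitochondrial carrier, at 6.65 and 7.14 on the luminal arrays and 4.37 and 4.53 on the basal arrays.

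Several families had close relatives on opposite sides. Pard6b and Pard6g, Rab27b and Rab27a, and Elovl6 and Elovl4 are given above. Ltbp1, which tethers latent TGF-beta, was luminal-high (1.02 ± 0.18), opposite to Ltbp2 and Ltbp4. The sodium pump had Atp1b1 at 10.22 and 9.75 on the luminal arrays and 8.59 and 9.11 on the basal arrays and Atp1b2 at 5.8 and 6.0 on the luminal arrays and 6.96 and 7.5 on the basal arrays. Regulatory subunits of protein kinase A had Prkar2b at 8.14 and 8.59 on the luminal arrays and 7.15 and 7.2 on the basal arrays and Prkar1b at 7.91 and 7.75 on the luminal arrays and 9.08 and 9.16 on the basal arrays. Galectins had Lgals3 at 9.3 and 8.95 on the luminal arrays and 8.0 and 7.96 on the basal arrays and Lgals1 at 9.69 and 10.42 on the luminal arrays and 11.84 and 11.87 on the basal arrays. Glutathione peroxidases had Gpx3 at 10.53 and 10.54 on the luminal arrays and 8.96 and 9.31 on the basal arrays against Gpx2 (-1.17 ± 0.18) and Gpx7 (-1.38 ± 0.29) on the basal side. In each pair the groups did not overlap, as for every changed gene. Sulf2 was called luminal-high (1.48 ± 0.13), opposite to Sulf1, but its other probe set above background was at -0.32 and did not pass, so the Sulf2 direction depends on the probe set. These pairs were picked out after their values were seen.

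Guidance and contact genes had more basal-high than luminal-high members, though most did not pass. Semaphorins and their receptors had 5 of 32 basal-high and 1 luminal-high. Sema5a was at 9.75 and 10.01 on the basal arrays and 6.39 and 7.18 on the luminal arrays (-3.1 ± 0.27), Sema6d at 7.72 and 8.08 on the basal arrays and 5.76 and 6.14 on the luminal arrays, and Sema4d, the luminal member, at 8.14 and 7.95 on the luminal arrays and 6.64 and 7.16 on the basal arrays. In the Slit, Robo and netrin group 5 of 22 were basal-high: Slit2 (-1.03 ± 0.14), its receptor Robo1 (-1.18 ± 0.13), Ntn4 (-2.0 ± 0.28), a netrin of basement membranes, its relative Ntng2 (-1.08 ± 0.16) and Unc5b (-1.17 ± 0.13), a netrin receptor. The 1 luminal member of that group, Unc50, matched by its symbol and is not a netrin receptor. The total of 6 became 1 without luminal replicate 1. Slit2 and Ntng2 were only just above background in basal cells. Ephrin genes had 3 of 20 basal-high, with Ephb1 at 6.27 and 6.68 on the basal arrays and 4.25 and 3.93 on the luminal arrays and the ligand Efnb2 at 9.35 and 9.56 on the basal arrays and 7.96 and 8.08 on the luminal arrays. Gja1, connexin 43 of basal gap junctions, was at 11.54 and 11.64 on the basal arrays and 9.8 and 9.88 on the luminal arrays. Tenm2, a teneurin that joins cells across synapses, was at 10.27 and 10.4 on the basal arrays and 5.72 and 6.52 on the luminal arrays (-4.22 ± 0.27, adjusted p = 0.00247) and 18.6-fold.

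Several channels of excitable cells were basal-high. Scn7a, a sodium channel relative that senses salt, was at 8.46 and 8.46 on the basal arrays and 4.23 and 5.06 on the luminal arrays, with both luminal arrays below background (at least 6.45-fold). Cacna2d1 and Cacna1c, subunits of the L-type calcium channel of muscle, were at 7.97 and 8.31 on the basal arrays and 5.35 and 5.24 on the luminal arrays and at 6.7 and 6.63 on the basal arrays and 4.78 and 4.96 on the luminal arrays. Kcnmb1, the smooth-muscle subunit of the BK potassium channel, was at 5.58 and 6.24 on the basal arrays and 3.86 and 3.76 on the luminal arrays. Of the families these belong to, voltage-gated calcium channels had 3 of 22 basal-high. Potassium channels had 3 of 77 basal-high and 2 luminal-high, near the shares over all genes, and 3 calls in all without luminal replicate 1. The luminal-high ones were Kcnn4 (1.11 ± 0.15), a calcium-activated channel, and Kcnj11 (1.14 ± 0.21), a pore subunit of ATP-sensitive channels. One basal-high match, Kcnq1ot1, is an RNA matched by its symbol and no channel.

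Secreted immune mediators were split by ligand. Chemokines and receptors had 6 of 52 basal-high and 2 luminal-high. The total was 5 without either luminal replicate. Cxcl14, an epithelial chemokine, was at 11.94 and 11.95 on the basal arrays and 7.78 and 8.81 on the luminal arrays. Cxcl12, the ligand of CXCR4 and also a member of the fibroblast list, was at 8.88 and 8.78 on the basal arrays and 5.08 and 6.16 on the luminal arrays, and the scavenging receptors Ackr4 (-2.59 ± 0.29) and Ackr3 (-1.25 ± 0.2, below background in both groups) were basal too. Luminal members were Cxcl15 at 7.24 and 8.5 on the luminal arrays and 5.87 and 6.26 on the basal arrays, with replicates more than 1 apart, and Cxcl17 at 7.42 and 6.83 on the luminal arrays and 5.39 and 5.37 on the basal arrays. Il17b was at 9.34 and 9.68 on the basal arrays and 5.69 and 6.82 on the luminal arrays and Il24 at 7.76 and 7.19 on the basal arrays and 5.74 and 5.77 on the luminal arrays. Pentraxin 3 (Ptx3), a soluble pattern receptor, was at 9.11 and 8.98 on the basal arrays and 5.53 and 5.44 on the luminal arrays, with replicates within 0.15 in each group. C4b (-1.58 ± 0.18) and C1s1 (-2.23 ± 0.22), of the complement cascade, were also basal-high. The receptor activator Tnfrsf11a (-1.05 ± 0.2) and its soluble decoy Tnfrsf11b (-1.66 ± 0.14) were both basal-high.

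Some basal-high genes are best known from blood vessels. The endothelial selectin Sele was at 6.26 and 7.15 on the basal arrays and 4.91 and 5.07 on the luminal arrays and its neighbour Selp at 7.98 and 8.53 on the basal arrays and 6.55 and 6.91 on the luminal arrays. The water channel Aqp1 was at 8.19 and 9.02 on the basal arrays and 6.57 and 7.25 on the luminal arrays, the VEGF receptor Flt1 at 7.0 and 7.44 on the basal arrays and 5.51 and 6.16 on the luminal arrays, and the endothelial phosphatase Ptprb at 6.89 and 7.66 on the basal arrays and 5.52 and 5.9 on the luminal arrays. In all 5, luminal replicate 1 was lowest and basal replicate 2 highest. The endothelial markers Pecam1 (7.95 and 8.69 on the basal arrays and 6.09 and 7.29 on the luminal arrays) and Cdh5 (7.85 and 8.48 on the basal arrays and 5.85 and 7.32 on the luminal arrays) had the same order without passing (adjusted p = 0.0561 and 0.0821). Of the 19 endothelial markers, 10 passed without basal replicate 1, 3 without luminal replicate 2 and 0 without either other array, against 1 with all arrays. The part of vessel RNA in the basal calls was not tested.

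Transcription factor families changed in few members. Of 22 ETS factors, 4 were luminal-high and 0 basal-high: Elf5 at 6.5 and 6.82 on the luminal arrays and 4.92 and 5.05 on the basal arrays, Ehf at 7.27 and 7.45 on the luminal arrays and 5.54 and 5.99 on the basal arrays, Spdef at 7.27 and 7.86 on the luminal arrays and 5.75 and 5.93 on the basal arrays and Elf3 at 8.34 and 8.23 on the luminal arrays and 7.06 and 7.51 on the basal arrays, all epithelial members of the family. Grhl1 (1.37 ± 0.2), a regulator of epithelial junction genes, and Msx2 (1.36 ± 0.19) were luminal-high. Tead2, a DNA-binding partner of YAP, was at 10.1 and 10.09 on the luminal arrays and 8.49 and 9.0 on the basal arrays. Basal-high factors included Id4, an inhibitor of bHLH factors, at 11.38 and 11.13 on the basal arrays and 8.6 and 9.43 on the luminal arrays, Irx4 at 6.84 and 7.72 on the basal arrays and 5.0 and 5.1 on the luminal arrays and Prrx1, a homeobox factor of mesenchyme, at 8.08 and 8.51 on the basal arrays and 5.94 and 6.14 on the luminal arrays. The 3 Nr4a receptors, fast-induced orphan nuclear receptors, were all basal-high: Nr4a1 by -1.25 ± 0.31, Nr4a2 by -1.89 ± 0.3 and Nr4a3 by -2.01 ± 0.16. AP-1, Atf and Maf factors, which hold other fast-induced genes, had 0 of 26 changed at least 2-fold by limma, although 2 passed its adjusted p as basal-high with the fold minimum off (7 at an unadjusted p under 0.05). With the minimum, no member passed limma either among 21 Sox factors (6 at an unadjusted p under 0.05), 37 Hox factors (6) and 21 Klf and Sp factors (4), but only 7 of the Hox genes were above background.

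Neighbouring genes were compared next, with 16935 genes placed in order on RefSeq's gene table. Genes beside a luminal-high gene were luminal-high in 7.88% of 1218 cases, and genes beside a basal-high gene basal-high in 6.52% of 1104 cases, against 3.57% and 3.24% of all genes; pairs count from both sides. Whether the pairs were paralogs or shared a promoter was not counted. The promoter windows of Col4a1 and Col4a2 lie on opposite strands and overlap by 78 bases. There were 6 runs of 3 genes. The run Meg3, Rian and Mirg comprised 3 maternally expressed noncoding RNAs of an imprinted cluster, thought to be made from a shared transcription unit. Meg3 was at 10.29 and 9.46 on the basal arrays and 7.68 and 7.89 on the luminal arrays, Rian at 9.55 and 8.61 on the basal arrays and 6.3 and 6.94 on the luminal arrays and Mirg at 7.57 and 7.08 on the basal arrays and 5.82 and 5.83 on the luminal arrays, with basal replicate 1 the highest each time. Kcnq1ot1, an imprinted antisense RNA, was at 9.56 and 8.82 on the basal arrays and 7.71 and 7.73 on the luminal arrays. Cdkn1c, a cell cycle inhibitor of the same imprinted cluster that was picked out after its value was seen, was at 8.52 and 9.05 on the basal arrays and 6.74 and 7.05 on the luminal arrays. Probe strand was not checked for these RNAs. On the luminal side, Tuft1, Selenbp2 and Cgn formed a run, and Mlph lay beside Rab17, as Foxa1 did beside Ttc6. Igfbp3 lay beside Tns3 (-1.24 ± 0.12) and Igfbp4 beside Tns4 (-1.56 ± 0.27), both basal-high; tensins link integrins to actin.

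**Figure D4:**
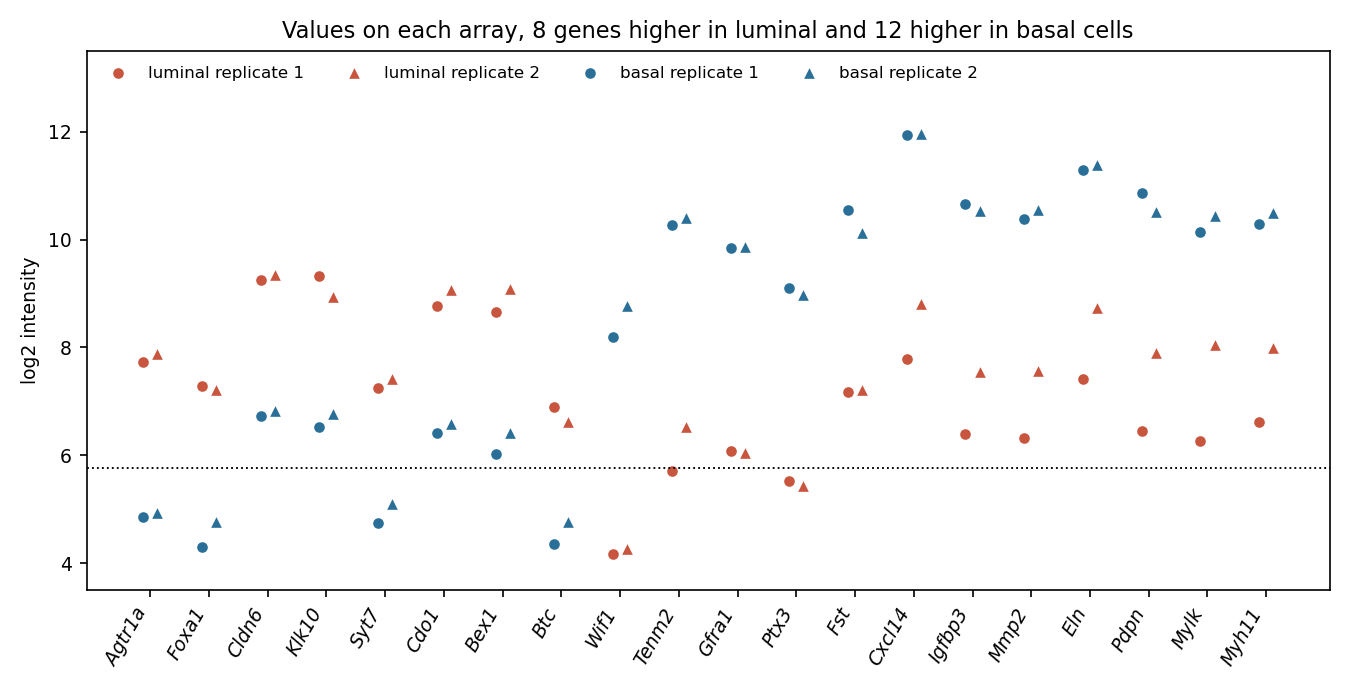
Level (log2 intensity) of 8 genes higher in luminal and 12 higher in basal cells on each of the 4 arrays, with circles for replicate 1, triangles for replicate 2 and the background level dotted. The red and blue symbols of each gene never overlap, as for every changed gene. From Cxcl14 to Myh11 the red triangle lies at least 1 above the red circle.

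The spread between replicates was not the same for all genes. The median SD between replicates was 0.1 for luminal and 0.12 for basal arrays, and replicates differed at least 2-fold for 80 and 110 genes. Of the 554 basal-high genes, 359 (64.8%) were higher on luminal replicate 2 than on replicate 1, against 47.4% of all genes. Among genes above background that share was 39.1%. In 16 of the basal-high genes the gap was at least 2-fold, and in 0 was it 2-fold the other way. Mylk, the myosin light chain kinase, was at 10.15 and 10.44 on the basal arrays and 6.27 and 8.04 on the luminal arrays, and podoplanin (Pdpn), a basal surface glycoprotein, at 10.86 and 10.51 on the basal arrays and 6.46 and 7.89 on the luminal arrays. Gfra1, above background on all 4 arrays, had no such gap. Wif1, Ptx3 and Ecrg4, the last at 8.92 and 8.89 on the basal arrays and 5.04 and 5.22 on the luminal arrays, had none either, but their luminal arrays lay below background. Of the 611 luminal-high genes, 488 (79.9%) were higher on basal replicate 2 than on replicate 1, against 55.2% of all genes. Among genes above background that share was 63.3%, so basal replicate 2 was the higher array for most of them. Replicate 1 of a group was thus more often the lower array for genes of the other group. The basal-high genes were also higher on basal replicate 2 than on replicate 1 in 73.5% of cases.

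**Figure D5:**
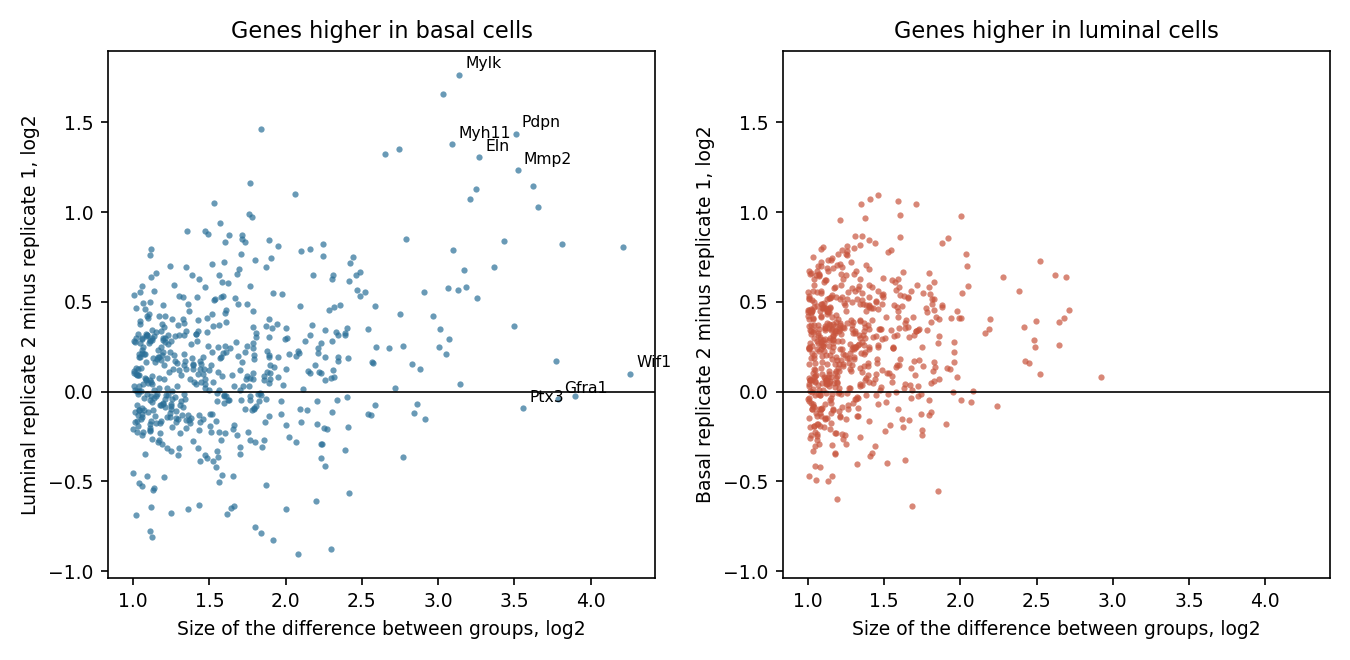
Difference between replicates of the lower group (log2, replicate 2 minus replicate 1) against the size of the difference between groups, for the 554 basal-high genes (left, luminal replicates) and the 611 luminal-high genes (right, basal replicates). Points with large gaps, such as Mylk and Pdpn, lie above 0 on the left, while Gfra1, Wif1 and Ptx3 lie at 0.

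Probe sets for the same gene gave a further check. Of 591 changed genes with more than 1 probe set, 303 had another probe set changed the same way and 0 one changed the opposite way. Of the 357 with another probe set above background, 272 (76.2%) had the same call again, and 352 had the same sign throughout. The 5 exceptions were Ccl27a, Hspb8, Npnt, Slc25a37 and Sulf2. Among the 15587 probe sets that had no gene name here, 400 changed (2.57%), 176 luminal-high and 224 basal-high.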

How the data were processed

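Amplified RNA of sorted mammary cells was hybridised to Affymetrix mouse arrays. The authors deposited linear probe set intensities; the submitters' processing notes name RMA and affy, whose versions and settings are not given in the sources used here. Log2 values had been assumed when the test was planned, so log2 of each deposited intensity was taken. Control probe sets and 4 without values were left out. Of the other 45033, the platform annotation gave a single symbol for 28895, several for 551 and none for 15587. A gene was represented by its brightest single-symbol probe set over the 7 arrays.

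Limma 3.58.1 (R 4.3.3) with eBayes compared the 4 adult arrays, with Benjamini-Hochberg adjustment over 17096 genes. Background was the 95th percentile of the adult mean log2 values of 146 probe sets for genes of other organs. Tested on simulated data for this comparison (17096 genes, 200 of them changed), the fit recovered 87% of log2 changes of 1.5 and 97% of changes of 3. There were 7 false calls among 191. The simulated noise was independent for each gene and array and drawn from the spread that the fit itself estimated. It held no deviation shared by many genes of an array, so these figures give no error rate for the real arrays. Deviations of same-numbered replicates in the 2 groups correlated at 0.08 over all genes and 0.15 over genes above background; nothing in the labels ties the numbers together.

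Families (102, by symbol) and lists (40) were counted without a set test. Members, lists and tests were chosen with earlier results of these data known. Genes were named by rule: markers and drivers, up to 25 per direction by size, up to 5 changed per direction and 3 others of each family or list, and members of neighbouring runs; Cdkn1c, Zeb1, Zeb2 and some leukocyte and fibroblast markers fell outside it and were added after their values were seen. Alternatives changed the fit, the scaling, the probe set choice, the offset, the fold minimum and the arrays.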

Additional observations from a re-analysis of the deposited data

How the results depend on the processing

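With the comparison of luminal and basal arrays refitted under each alternative, no called gene changed sign. For most alternatives this could not have come out otherwise. The arrays of called genes did not overlap, so leaving out an array or adding an offset could not change a sign. Fits that altered only the prior, the block, the genes kept or the embryonic arrays used the same difference. Only the scaling and the probe set choice could change a sign. Adding 32 to each intensity before log2 gave 505 changed genes, 216 luminal-high and 289 basal-high, all 505 among the 1165. Without a fold minimum the counts were 2879, 1829 and 1050, and with a 4-fold minimum 161, 30 and 131. Leaving out 1 array at a time gave 519 to 1443 changed genes, 232 to 929 luminal-high and 287 to 704 basal-high; the lowest counts came without luminal replicate 1, and the highest without basal replicate 2 (1443 and 929) or basal replicate 1 (704). A group with 1 array left was assumed to vary like the other. The replicate block gave 1208 changed genes, 1144 of them shared; same-numbered replicates shared only a number, so it is no pairing. All 7 arrays in the fit gave 939, the mean of a gene's probe sets 957, and quantile normalization 1134, 43.1% of them luminal-high against 52.4%. Of 23 groups with a median beyond 0.3 in size, 0 changed the sign of the median under any alternative. This is a weak check, because the groups were picked for large medians. Fits that altered only the prior, the block or the embryonic arrays kept every median as it was. Quantile normalization and median centring moved the median of all genes only from 0.0235 to 0.0119 and -0.0349. Levels near background limit folds for 40.4% of luminal-high and 39.5% of basal-high genes.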
